A study of Mus musculus with 6 samples.

Results

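Claudins are the membrane proteins that form the strands of tight junctions, and 8 claudin genes were followed here in the skin of mice with a targeted Hoxc13 allele and of wild type mice. The genes were Cldn1, Cldn3, Cldn4, Cldn5, Cldn7, Cldn8, Cldn10 and Cldn12. They were chosen by symbol, with the differences between these same arrays already known, so their values are given as a description. No p is given for them, and how many the fit across all probe sets called appears only beside the share of all probe sets called. All 8 had a probe set, among 15644 named genes on the arrays. Each gene had a single probe set, and its value is a log2 RMA value, the summarised and normalised brightness of its probes.

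Skin of both genotypes was hybridised, each as 3 samples that the design text calls independent. The mutant samples carried Hoxc13tm1Mrc, labelled a knockout of Hoxc13, which encodes a homeodomain protein active in growing hair. The labels give neither zygosity nor the altered part of the gene. The controls were labelled WT. All samples were skin of mice on a C57BL/6 background, labelled male, with 5 dpn in their titles. Whole dissected skin was used, so fewer cells of a type and less RNA per cell cannot be told apart in any value below.

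The tissue label was checked on epidermal keratins: the basal Krt14 read 12.51 to 13.05 and the suprabasal Krt10 13.79 to 14.13, whereas the suprabasal Krt2 read 3.61 to 4.04, below the lower quartile on all 6 arrays. Hoxc13 itself read 8.95, 8.75 and 9.74 in mutant skin, against 9.63, 9.81 and 9.83 in wild type skin, and the groups overlapped (difference -0.61, limma adjusted p = 0.293). Whether its probes lie in the altered part is not given. Among the mutant arrays, replicate 3 was the distant one, at -26.6 on the second principal component against 13.1 and 11.1. The 5 measured Y-linked probe sets read 2.98 to 4.89 and Xist 11.15 to 11.67, although the labels say male.

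Each claudin crosses the membrane several times, and its extracellular loops meet those of claudins on the neighbouring cell. Some members seal the space between cells and others form pores for ions, so the set of claudins in a cell layer shapes what can pass. In mouse epidermis tight junctions lie in the granular layer, below the cornified layer, and claudins are also found in the hair follicle. Cldn5 is the main claudin of endothelium. The other 7 genes are grouped here as epithelial, and which cells of the skin held their RNA was not tested.

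The 3 genes Cldn7, Cldn8 and Cldn12, all grouped as epithelial, were lower on every mutant array than on any wild type array. The other 5 had overlapping groups. The 4 sequences below are the windows around the annotated starts of Cldn7 and Cldn12, which were both lower in mutant skin, and of Cldn5, whose groups overlapped. For Cldn12 the window of the most upstream start is shown, and its other 2 windows overlap it and each hold a GC box that it lacks. They run from 250 bases before to 50 after the start and come from RefSeq on GRCm38.p6. Capitals mark matches to the motifs named after them.

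Cldn7, chr11:69964529-69964828, plus strand: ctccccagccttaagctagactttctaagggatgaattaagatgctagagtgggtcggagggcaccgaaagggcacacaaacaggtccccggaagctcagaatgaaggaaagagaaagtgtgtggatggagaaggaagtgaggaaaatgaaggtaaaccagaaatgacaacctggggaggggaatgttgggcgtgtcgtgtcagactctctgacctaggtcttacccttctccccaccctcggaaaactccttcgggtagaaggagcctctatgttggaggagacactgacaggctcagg
Cldn7, second start, chr11:69965171-69965470, plus strand: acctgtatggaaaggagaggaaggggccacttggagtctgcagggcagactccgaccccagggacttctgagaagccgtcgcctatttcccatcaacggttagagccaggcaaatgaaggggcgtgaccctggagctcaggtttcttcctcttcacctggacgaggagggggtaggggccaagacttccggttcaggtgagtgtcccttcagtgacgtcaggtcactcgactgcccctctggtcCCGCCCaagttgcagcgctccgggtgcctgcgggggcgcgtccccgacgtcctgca
Cldn12, chr5:5514927-5515226, minus strand: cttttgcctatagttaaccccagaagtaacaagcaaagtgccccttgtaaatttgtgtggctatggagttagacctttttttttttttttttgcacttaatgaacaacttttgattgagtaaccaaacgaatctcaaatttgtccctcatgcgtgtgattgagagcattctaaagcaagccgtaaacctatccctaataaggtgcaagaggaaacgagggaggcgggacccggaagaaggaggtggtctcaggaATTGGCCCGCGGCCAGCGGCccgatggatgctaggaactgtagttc
Cldn5, chr16:18776597-18776896, plus strand: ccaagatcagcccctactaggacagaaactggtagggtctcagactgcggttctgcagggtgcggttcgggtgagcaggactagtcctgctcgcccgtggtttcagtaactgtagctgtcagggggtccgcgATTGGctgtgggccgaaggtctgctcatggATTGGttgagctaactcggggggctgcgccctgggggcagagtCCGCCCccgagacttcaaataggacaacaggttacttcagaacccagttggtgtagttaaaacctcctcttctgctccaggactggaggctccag

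RefSeq windows were found for 7 of the 8 genes, all but Cldn8, with 11 windows in all. A set of 6 motifs was searched on both strands. TTTATNG, a form of the core that posterior HOX proteins bind, was in 0 of the 11 windows and in 10.9% of all 32851 windows. TATAAA, the TATA box, was in 0 of them and in 13.6% of all, and it can overlap a reverse match of the HOX form. GGGCGG, the GC box, was in 8 of them and in 35.7% of all. CCAAT was in 5 of them, those of Cldn5 and Cldn12 and 1 of Cldn10, and in 37.4% of all. GCCNNNGGC, an AP-2 type motif, was in 4 of them, those of Cldn12 and Cldn3, and in 16.6% of all, and in Cldn12 its matches overlap one another and the CCAAT match, so the capitals run together. AACCGGTT, bound by grainyhead factors, was in 0 of them and in 0.146% of all. The Cldn12 windows overlap and share the same CCAAT and AP-2 type matches, so those counts hold the same stretch more than once. A match is a description of these letters, and the absence of one says nothing about a factor. The first Cldn7 window held none of the 6.

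Cldn7, which binds the surface protein EpCAM and is needed in the intestine of mice, showed the largest difference. It read 5.47, 5.41 and 5.46 in mutant skin, against 6.30, 6.40 and 6.21 in wild type skin. All mutant values lay below all wild type values, with a gap of 0.74 between the nearest arrays. The means were 5.45 ± 0.03 in mutant and 6.30 ± 0.09 in wild type skin (SD, n = 3 each), a difference of -0.86 (SE 0.07), or a mutant level of 55.2% of wild type. Each mutant value lay just below the lower quartile of its array (5.485 on mutant replicate 2), so the mutant level was read at low signal. Detection calls were not used here.

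Cldn8 is a sealing claudin best known from the distal nephron, where it pairs with Cldn4. Its values were 8.22, 8.12 and 8.24 in mutant skin, against 9.04, 8.94 and 8.98 in wild type skin. The groups were again fully apart, by 0.71, with little spread within either. The means were 8.19 ± 0.06 in mutant and 8.99 ± 0.05 in wild type skin (SD, n = 3 each), a difference of -0.79 (SE 0.07) and a mutant level of 57.7% of wild type. Unlike those of Cldn7, these values lay well above the lower quartile in both genotypes.

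Cldn12 is a divergent claudin that lacks the PDZ-binding end by which most of the family attach to scaffold proteins. It read 8.91, 8.90 and 8.89 in mutant skin, against 9.49, 9.43 and 9.62 in wild type skin. The 3 mutant arrays gave nearly the same value, 0.52 below the lowest wild type array. The means were 8.90 ± 0.01 in mutant and 9.51 ± 0.10 in wild type skin (SD, n = 3 each), a difference of -0.61 (SE 0.07) and a mutant level of 65.4% of wild type.

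**Figure D1:**
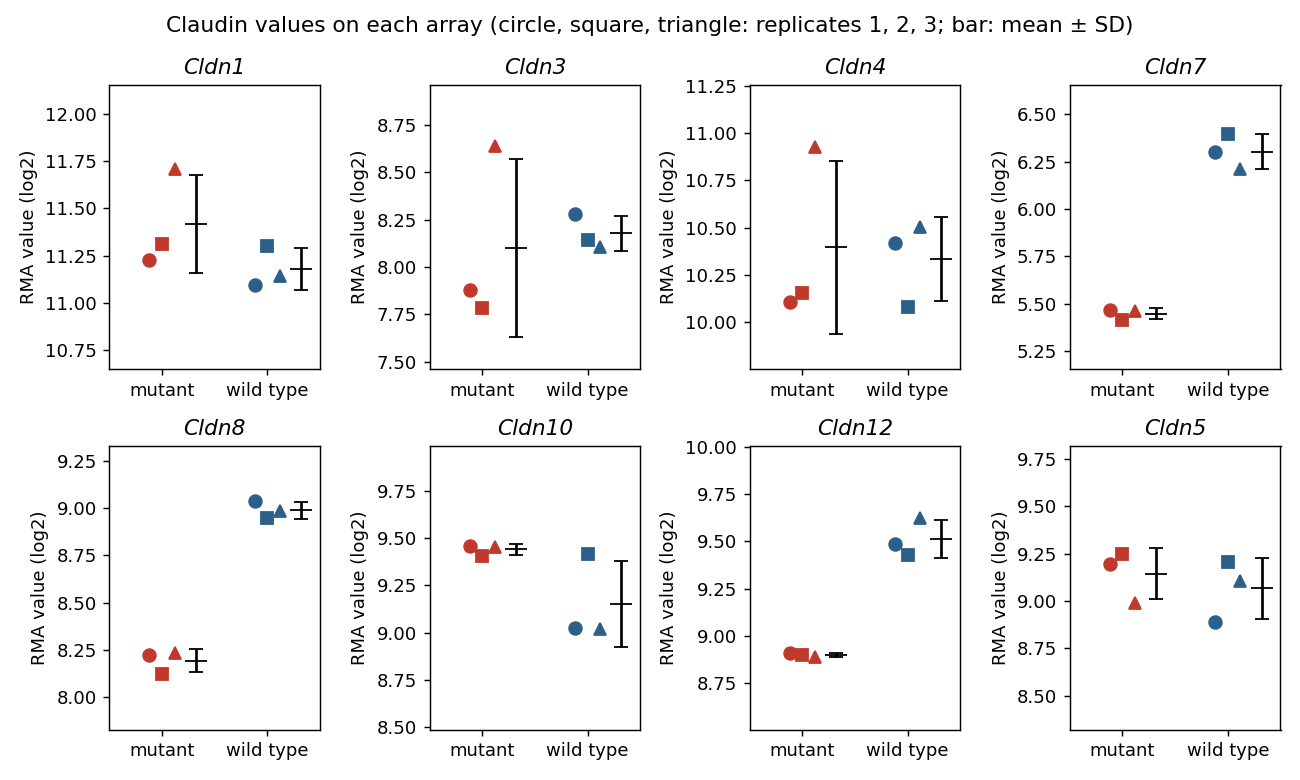
RMA value (log2) of each claudin on every array, mutant left and wild type right in each panel, with replicates 1, 2 and 3 as circle, square and triangle and the mean ± SD beside them. Each panel spans the same number of log2 units but starts at its own level. Cldn7, Cldn8 and Cldn12 separate the genotypes by 0.74, 0.71 and 0.52, and the other 5 panels overlap.

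Cldn1, without which newborn mice lose water through the skin and die, had a mean somewhat above wild type. It read 11.23, 11.31 and 11.71 in mutant skin, against 11.10, 11.30 and 11.14 in wild type skin. The groups overlapped through mutant replicate 1 and wild type replicate 2, and mutant replicate 3 was the highest. The difference was 0.24 (SE 0.13), and 0.091 without mutant replicate 3.

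Cldn3 and Cldn4, receptors for a Clostridium enterotoxin, are adjacent genes on chromosome 5, with 0 protein-coding genes between them in RefSeq. Cldn3 read 7.88, 7.78 and 8.64 in mutant skin, against 8.28, 8.14 and 8.11 in wild type skin. Mutant replicates 1 and 2 lay below the wild type range and mutant replicate 3 above it. Cldn4 read 10.11, 10.15 and 10.93 in mutant skin, against 10.42, 10.08 and 10.50 in wild type skin. Its mutant replicates 1 and 2 lay within the wild type range and replicate 3 again above it. Mutant replicate 3 exceeded mutant replicates 1 and 2, averaged, by 0.81 for Cldn3, 0.79 for Cldn4 and 0.44 for Cldn1. The differences with all arrays were -0.08 (SE 0.21) for Cldn3 and 0.06 (SE 0.22) for Cldn4. Without mutant replicate 3 they were -0.35 and -0.20, so the sign of Cldn4 turned. It also turned without wild type replicate 2 (-0.07), and the sign of Cldn3 turned without mutant replicate 1 (0.03) or 2 (0.08).

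Cldn10 makes isoforms that act as anion or cation pores, and its loss in humans impairs sweating. It read 9.46, 9.40 and 9.45 in mutant skin, against 9.03, 9.41 and 9.02 in wild type skin. Mutant values were close together, and wild type replicate 2 reached their range, so the groups met by 0.01. The difference was 0.29 (SE 0.11). A single probe set read the gene, so its isoforms were not separated.

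Cldn5, the endothelial member, read 9.19, 9.25 and 8.99 in mutant skin, against 8.89, 9.20 and 9.10 in wild type skin. The arrays of both genotypes were interleaved. The means were 9.14 ± 0.14 in mutant and 9.07 ± 0.16 in wild type skin (SD, n = 3 each), a difference of 0.08 (SE 0.11). With each array left out in turn the difference lay between -0.0095, without wild type replicate 1, and 0.16, without mutant replicate 3.

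**Figure D2:**
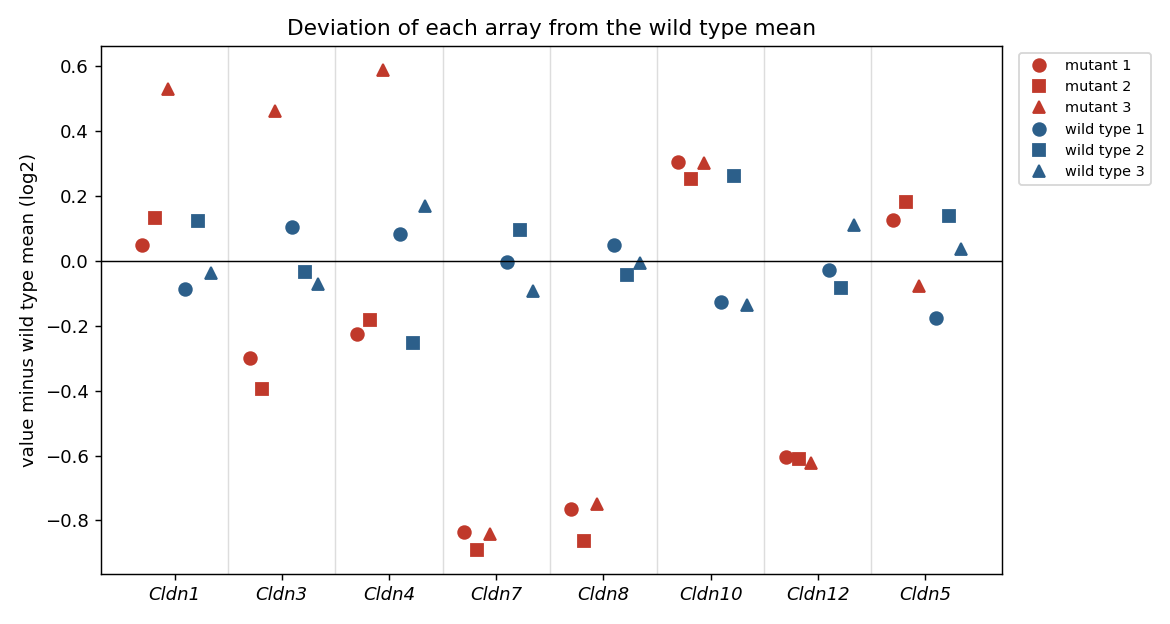
Value on each array minus the gene's wild type mean (log2), with mutant arrays in red left of wild type arrays in blue for each gene, and Cldn5 at the far right. The mutant points of Cldn7, Cldn8 and Cldn12 lie together well below 0, whereas mutant replicate 3 (red triangle) lies above the other mutant points for Cldn1, Cldn3 and Cldn4 and slightly below them for Cldn5.

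Against the endothelial Cldn5, the 7 epithelial members did not move as a block. Their differences ran between -0.86 and 0.29. Averaged per array and set relative to wild type, they stood at -0.34, -0.37 and -0.05 in mutant skin, against -0.00090, 0.0097 and -0.0088 in wild type skin. Cldn5 on the same scale stood at 0.13, 0.18 and -0.08 in mutant skin, against -0.18, 0.14 and 0.04 in wild type skin. Epithelial mean minus Cldn5 was -0.47, -0.55 and 0.03 in mutant skin, against 0.17, -0.13 and -0.05 in wild type skin. The groups overlapped because of mutant replicate 3, where the epithelial mean was higher and Cldn5 lower than on the other mutant arrays. The difference of the means was -0.33. Leaving out mutant replicate 3 gave -0.51, and leaving out mutant replicate 2 gave -0.22.

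In the limma fit over all 16331 probe sets, with Benjamini-Hochberg adjustment and a threshold of 0.05, 3 of the 8 claudins were called, all lower in mutant skin, where 2.08% of all probe sets were called, 1.60% lower and 0.478% higher. The groups did not overlap for these 3 of 8, against 20.3% of all probe sets, 7.82% with mutant lower and 12.5% with mutant higher. Since this contrast was known when the genes were chosen, nothing is read from these shares. Without moderation of the variances 2 of the 8 were called, Cldn7 and Cldn8, where 0.514% of all probe sets were called. The median difference of the 8 was -0.0083, beside 0.025 over all probe sets, and it was -0.28 and 0.016 without mutant replicate 3. With mutant replicate 3 left out, 4 of the 8 were called, Cldn3 being the addition, where 14.2% of all probe sets were called, 6.23% lower and 7.95% higher. An unadjusted p under 0.05 was found for 14.4% of all probe sets with every array in. The counts of other gene lists below are to be set beside these shares. Among all probe sets, 1.04% had a difference at or below that of Cldn7, 1.15% at or below that of Cldn8 and 1.65% at or below that of Cldn12. When each array was left out in turn, Cldn7 stayed between -0.90 and -0.81, Cldn8 between -0.81 and -0.76 and Cldn12 between -0.65 and -0.56.

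The hair shaft keratins, filament proteins of the growing hair, were also lower on every mutant array than on any wild type array. All 10 measured shaft keratins were called lower, and their mean level was 5.87, 6.04 and 5.51 in mutant skin, against 11.69, 11.36 and 11.50 in wild type skin. Krt35 fell by 6.91 (SE 0.11, limma adjusted p = 3.32e-07). Of 9 measured inner root sheath genes, which mark the layers around the shaft, 2 fell, Krt26 (-1.90, adjusted p = 0.000172) and Krt72 (-2.20, adjusted p = 0.0106). The call of Krt72 was lost without mutant replicate 2 or any 1 wild type array (adjusted p between 0.0509 and 0.0671). With mutant replicate 3 left out, 5 of the 9 passed, all lower. The mean level of that list was 12.05, 12.12 and 12.57 in mutant skin, against 12.74, 12.78 and 12.82 in wild type skin. The part of hair follicle cells in the claudin values was not tested.

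Of 9 basal keratinocyte genes 1 rose, Lamb3, a laminin chain (0.40, adjusted p = 0.0494), and none fell. That call was lost without any single array other than mutant replicate 3 (adjusted p between 0.0883 and 0.217). The mean of that list was 10.36, 10.34 and 10.62 in mutant skin, against 10.19, 10.31 and 10.23 in wild type skin, highest in mutant replicate 3 as were Cldn1, Cldn3 and Cldn4. Of 14 suprabasal and granular genes 2 fell, the transglutaminase gene Tgm3 (-1.43, adjusted p = 6e-04) and the involucrin gene Ivl (-0.74, adjusted p = 0.00559), and 12 did not pass. The median of the suprabasal list was 0.027. Of 8 simple epithelium genes none passed in limma and 2 had an unadjusted p under 0.05, with the smallest p at Krt18 (-0.82, adjusted p = 0.195). Without mutant replicate 3, Krt8 and Krt18 passed, both lower, as did 2 basal genes, both higher, and 5 suprabasal genes, 4 lower and 1 higher.

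Among 20 blood endothelial markers 0 passed in limma, and 2 had an unadjusted p under 0.05. Their median difference was 0.046, and the smallest p was that of Vwf, the von Willebrand factor gene (0.50, adjusted p = 0.157). The mean level of the list was 7.50, 7.54 and 7.30 in mutant skin, against 7.27, 7.45 and 7.40 in wild type skin. Without mutant replicate 3, 3 of the 20 passed, Vwf, Sox18 and Ramp2, all higher, a share near the 14.2% of all probe sets called in that fit. On both this mean and Cldn5, mutant replicate 2 was highest and wild type replicate 1 lowest. Of 6 lymphatic markers 0 passed and 1 had an unadjusted p under 0.05, Reln (0.80, adjusted p = 0.176). Their mean was 7.65, 7.76 and 7.10 in mutant skin, against 7.15, 7.11 and 7.14 in wild type skin, so mutant replicate 3 lay below the wild type arrays as the other mutant arrays did not, and without it 4 of the 6 passed, all higher. Of 8 mural cell genes 0 passed and 3 had an unadjusted p under 0.05, with the smallest p at Cspg4 (0.30, adjusted p = 0.172). Myh11 was the 1 mural gene that passed without mutant replicate 3 (0.60, adjusted p = 0.00872). Of 13 skeletal muscle genes 1 rose, Myh2 (1.23, adjusted p = 0.0195), and 6 had an unadjusted p under 0.05. All 13 had a difference above 0, with a median of 0.78, and the mean level was 11.85, 11.33 and 10.84 in mutant skin, against 10.55, 11.26 and 10.10 in wild type skin. Of 8 sebaceous genes 1 rose, Krt79 (0.54, adjusted p = 0.0435), while 6 of the 8 had a difference below 0 and the median was -0.26. Elovl3 (-1.14, adjusted p = 0.107) and Fasn (-0.44, adjusted p = 0.174), both lipid synthesis genes, were lower on every mutant array than on any wild type array but did not pass. These 2 were named after their values were seen. The call of Myh2 was lost without mutant replicate 1 or 2 or wild type replicate 1 (adjusted p = 0.085, 0.0868 and 0.056), and that of Krt79 without any single array other than mutant replicate 3 (adjusted p between 0.0868 and 0.192). With mutant replicate 3 left out, 6 muscle genes passed, all higher, and 5 sebaceous genes, 4 lower and 1 higher, against 14.2% of all probe sets. The part of these cell types in the claudin values was not tested.

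Of 21 further claudins listed, 12 had a probe set, and 0 passed in limma or had an unadjusted p under 0.05. Their differences ran between -0.21 and 0.20, with a median of 0.0055, and the groups overlapped for all 12. For 8 of the 12 both group means, 3.50 to 5.31, lay below the lower quartile of the arrays, so their differences were read at low signal. The smallest p was that of Cldn14, known from the inner ear, which read 6.83, 6.88 and 7.29 in mutant skin, against 7.27, 7.13 and 7.21 in wild type skin (-0.21, SE 0.13, adjusted p = 0.505). Its low mutant arrays were replicates 1 and 2, and without replicate 3 it passed (-0.35, adjusted p = 0.0192).

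**Figure D3:**
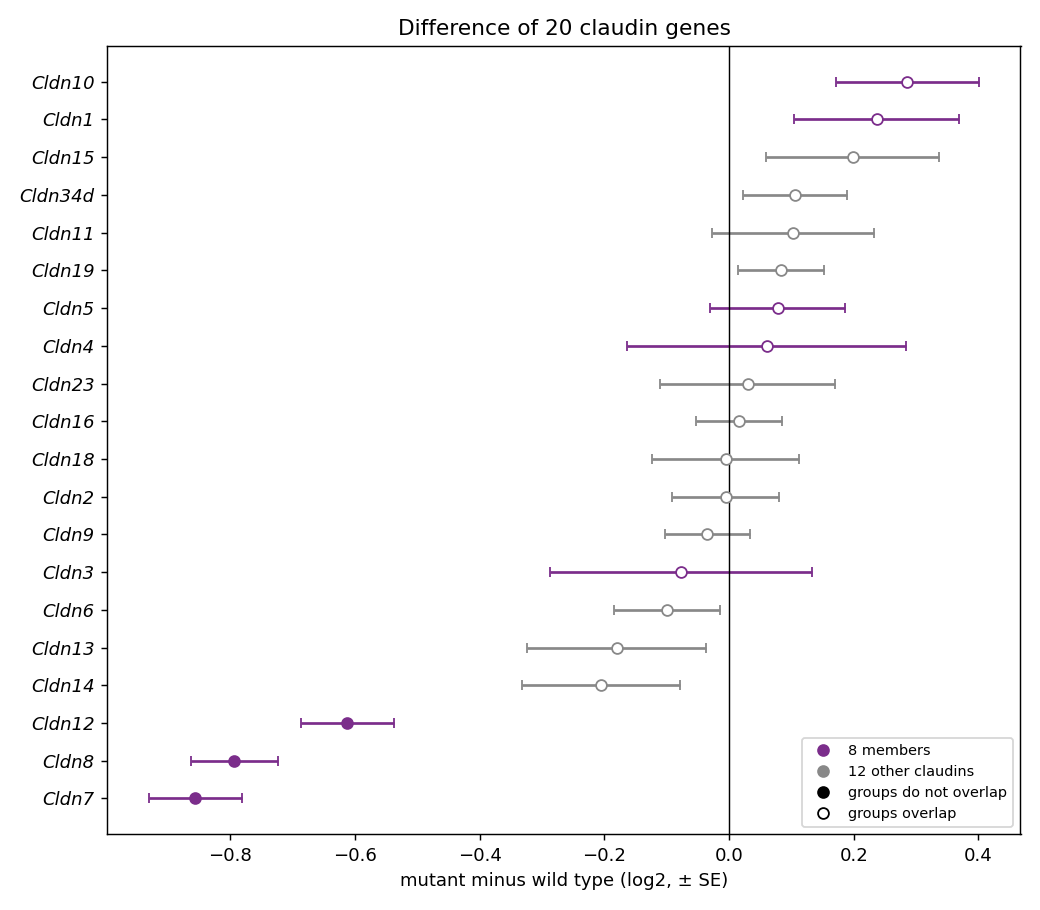
Difference between mutant and wild type (log2) with its standard error for the 8 members in purple and 12 other claudins in grey, ordered by difference, with filled points where the groups do not overlap. Cldn7, Cldn8 and Cldn12 lie between -0.86 and -0.61, and the other 17 lie between -0.21 and 0.29.

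The other membrane proteins of the tight junction include occludin and the angulins, which mark corners where cells meet. Of 12 measured, 0 passed in limma and 2 had an unadjusted p under 0.05, with a median of -0.011. The occludin gene Ocln differed by 0.07 (SE 0.11, adjusted p = 0.808). The smallest p was that of the angulin gene Lsr, which read 9.21, 8.96 and 9.72 in mutant skin, against 9.86, 10.02 and 9.95 in wild type skin. All its mutant values were lower, but replicate 3 lay near the wild type arrays, and Lsr missed the threshold (-0.64, SE 0.18, adjusted p = 0.149). Leaving out mutant replicate 3 gave -0.86 (adjusted p = 0.00139).

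Plaque proteins tie the claudins to actin and to polarity complexes. Of 16 measured, 1 fell and 0 rose, with a median of 0.032, and 9 had an unadjusted p under 0.05, beside 14.4% of all probe sets. The one that fell was Magi3, a scaffold protein with PDZ domains. It read 6.50, 6.40 and 6.33 in mutant skin, against 6.87, 6.99 and 7.05 in wild type skin, fully apart. The difference was -0.56 (SE 0.08, adjusted p = 0.0166). The call was lost without mutant replicate 2 or wild type replicates 2 or 3 (adjusted p = 0.0764, 0.086 and 0.0952). Tjp1, which encodes the scaffold ZO-1, was at -0.27 (SE 0.08, adjusted p = 0.183) and was named after its values were seen. Without mutant replicate 3, 6 plaque genes passed, Magi3, Tjp1, Cgnl1 and Prkcz lower and Amot and Ybx3 higher, beside 14.2% of all probe sets.

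Partners of claudins at the cell surface include EpCAM, tetraspanins and the proteases that act on them. Of 8 measured, 2 fell and 0 rose, with a median of 0.090. An unadjusted p under 0.05 was found for 3 of the 8, beside 14.4% of all probe sets. St14 encodes matriptase, a membrane serine protease of the epidermis that cleaves EpCAM. It read 9.66, 9.65 and 9.88 in mutant skin, against 10.33, 10.30 and 10.24 in wild type skin, a difference of -0.56 (SE 0.09, adjusted p = 0.0196). Spint1 encodes its inhibitor HAI-1 and read 9.49, 9.40 and 9.87 in mutant skin, against 10.37, 10.28 and 10.28 in wild type skin, a difference of -0.72 (SE 0.12, adjusted p = 0.0339). For both genes every mutant array was below every wild type array, with replicate 3 the nearest. Both calls were lost without any single array other than mutant replicate 3, with adjusted p between 0.086 and 0.113 for St14 and between 0.113 and 0.169 for Spint1. In the fit without mutant replicate 3, 3 of the 8 passed, all lower, beside 14.2% of all probe sets. These were St14, Spint1 and the protease gene Prss8 (-0.365, adjusted p = 0.0203). Epcam itself read 11.70, 11.68 and 12.32 in mutant skin, against 11.42, 11.69 and 11.53 in wild type skin (0.35, SE 0.17, adjusted p = 0.412), highest in mutant replicate 3, unlike its partner Cldn7. Of 12 transcription factors of epithelial junctions 0 passed in limma and 3 had an unadjusted p under 0.05. The smallest p was that of Snai1, a repressor of epithelial junction genes (0.44, adjusted p = 0.0549). Without mutant replicate 3, 5 of the 12 passed, Snai1, Zeb1 and Zeb2 higher and Elf3 and Ovol1 lower, in a fit that called 14.2% of all probe sets.

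Desmosome and connexin genes, which build other kinds of cell contact, gave counts of 1 lower of 14 and 1 lower of 14 measured. These were the desmocollin gene Dsc2 (-2.52, adjusted p = 0.00317) and the connexin gene Gja3 (-0.75, adjusted p = 0.00975), with list medians of -0.034 and -0.040. The call of Gja3 was lost without wild type replicate 1 or 3 (adjusted p = 0.0654 and 0.0638). With mutant replicate 3 left out, 5 desmosome genes passed, all lower, and 3 connexin genes, 2 lower and 1 higher, beside 14.2% of all probe sets. Whether the claudins differ from these lists was not tested.

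**Figure D4:**
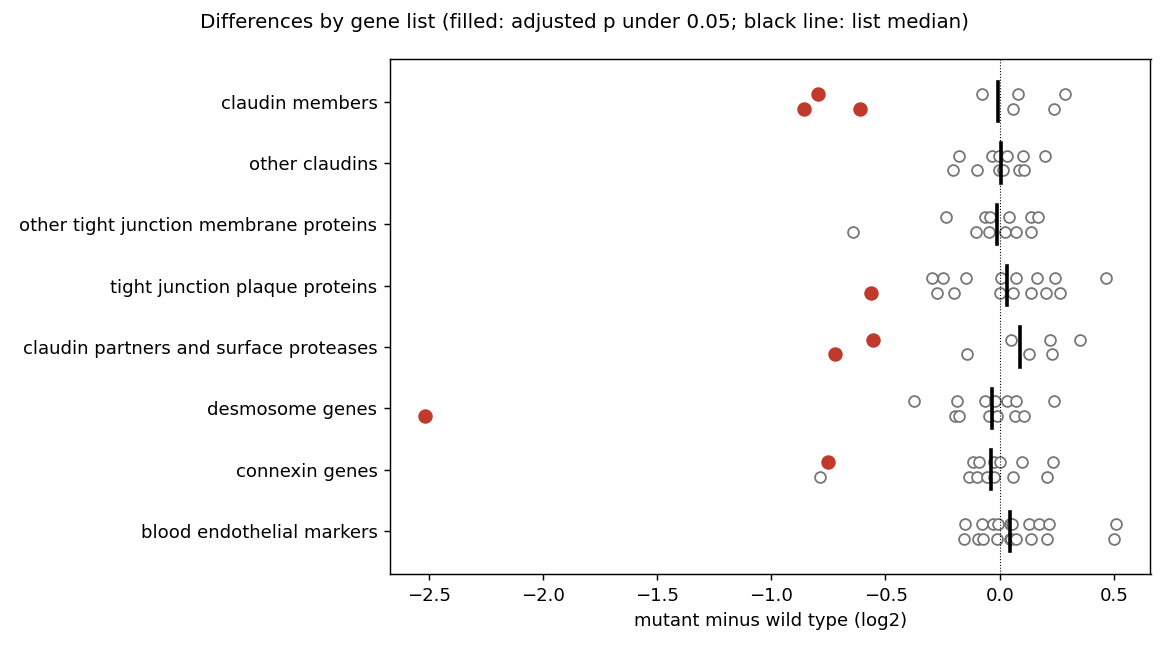
Difference between mutant and wild type (log2) for every measured gene of 8 lists, with called genes filled in red and the list median as a black line. The 3 filled claudin members lie between -0.86 and -0.61, in a fit that called 2.08% of all probe sets. The members were chosen with these differences known. The medians of all 8 lists lie between -0.040 and 0.090.

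The genes whose 6 values lay closest to those of Cldn7, after each was set relative to its wild type mean, were sought among 11788 other named genes above the lower quartile. Closeness was the root mean square distance over the 6 arrays. The nearest was Cldn8, at 0.085, followed by Asl, which encodes argininosuccinate lyase, at 0.090, and Eif2b4, which encodes a subunit of a translation exchange factor, at 0.091, where the median distance was 0.64. On this relative scale Cldn8 differed from Cldn7 by little on each array. Such a distance is small for genes with a like difference between genotypes, here -0.79 for Cldn8, -0.90 for Asl and -0.76 for Eif2b4. Both claudins were chosen with their differences known, and whether these genes are regulated together was not tested. For Cldn5 the nearest were Gask1b at 0.031, St6galnac4 at 0.032 and Rhobtb3 at 0.037, where the median was 0.19.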

How the data were processed

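Total RNA of dissected skin was labelled by oligo(dT)-primed amplification and hybridised to Affymetrix arrays (labels' protocols). The values are log2 as the authors deposited them. The submitters' processing notes name RMA and no version. Because RMA gives all arrays 1 distribution, a shift in overall RNA content is invisible. Precision is limited by the 6 arrays.

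Of 16395 probe sets, 64 controls were left out. Of the 16331 tested, 15644 had 1 gene symbol, 0 several and 687 none here. Groups came from the titles and were tested in R 4.3.3 using limma 3.58.1 (lmFit, eBayes, two-sided, no filter or block), adjusted by Benjamini-Hochberg. The fit was checked on simulated data with independent noise of equal spread on all arrays. That check did not cover an outlying array such as mutant replicate 3. The p-values cover the spread among these 6 samples, and nothing given here ties each to 1 animal.

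The claudins, the 19 gene lists and the tests were chosen with earlier results of these data known. Named were all 8 claudins, Hoxc13, up to 4 called genes of each list with the smallest adjusted p, or the gene with the smallest p, and the nearest patterns. Other names were chosen after their values were seen, passed only without mutant replicate 3, or stand beside a claudin as tissue or partner genes. Of the listed genes, 1 (Pals1, as Mpp5) was matched through a RefSeq synonym. Alternatives were a filter on low values, 2 further normalisations, a trend with a robust prior, array weights, a replicate block, no moderation, and leaving out each array. Python 3.11.15 with matplotlib 3.10.9 drew the figures.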

Additional observations from a re-analysis of the deposited data

How the results depend on the processing

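The members' differences are a description under each setting. Across the 13 alternatives Cldn7, Cldn8 and Cldn12 stayed below 0, and Cldn1 and Cldn10 above 0. The filter, centring on array medians, the trend, the block and the lack of moderation left these differences unchanged, so they bear only on calls. For Cldn7, Cldn8 and Cldn12 no single omission could turn the sign, because their groups did not overlap. The sign changed for Cldn4 with array weights (-0.15), without mutant replicate 3 (-0.20) and without wild type replicate 2 (-0.07), for Cldn3 without mutant replicates 1 (0.03) or 2 (0.08), and for Cldn5 without wild type replicate 1 (-0.0095). The cause was not tested.

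Over all probe sets, array weights gave 1880 calls (839 lower, 1041 higher), with mutant replicate 3 at a weight of 0.234, and no moderation gave 84 (66 lower, 18 higher). The replicate block gave 197 calls, 22 of them higher. Same-numbered samples did not deviate together (correlations of 0.036, -0.119 and -0.0873), and 0 of 3 mutant samples correlated best with their own number. No pairing by number was thus seen, but with 3 samples in each group these correlations cannot settle whether samples were paired. Leaving out 1 array gave 151 to 2316 calls (134 to 1018 lower, 9 to 1298 higher), with the highest counts without mutant replicate 3. The median of the members was -0.22 with array weights and -0.28 to 0.053 when 1 array was left out. Epithelial members minus Cldn5 ranged from -0.51 to -0.22 when 1 array was left out. With the block the calls of Magi3, St14, Spint1, Lamb3 and Krt79 were lost (adjusted p = 0.0823, 0.0811, 0.0714, 0.115 and 0.097). Without moderation these 5 calls (0.115, 0.127, 0.209, 0.142 and 0.2) were lost. So were those of Dsc2 (0.125), Gja3 (0.124), Ivl (0.0875), Tgm3 (0.0598), Krt72 (0.176) and Myh2 (0.197). Of the claudins, Cldn12 lost its call in that fit, which called 0.514% of all probe sets. A trend with a robust prior lost that of Lamb3 (0.0593). Detection calls were not used, so whether the mutant values of Cldn7, just below the lower quartile, lie above background was not tested.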
